A study of Mus musculus with 12 samples.

Results

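The Hox genes are transcription factors that lie side by side in chromosomal clusters and give cells their address along the body axis. Within a cluster the genes are numbered by their place, paralogs in different clusters share a number, and low numbers act toward the head while high numbers act toward the tail and the ends of the limbs. Fibroblasts grown in culture are known to keep much of the Hox pattern of the body site they came from, so that the pattern can be read as a record of position. All 39 genes whose symbol is Hox followed by a cluster letter from a to d and a number were taken from the 20661 genes counted, with no use of measured values. They comprise 11 Hoxa genes, 10 Hoxb genes, 9 Hoxc genes and 9 Hoxd genes. By number, 8 are called anterior here (paralog groups 1 to 3), 15 central (4 to 8) and 16 posterior (9 to 13).

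The measurements came from mouse embryonic fibroblasts (MEFs) at passage 4, in which ribosome profiling, the sequencing of mRNA fragments protected by ribosomes, was run beside RNA sequencing to ask how ARF, a tumour suppressor encoded by Cdkn2a, affects translation. There were 3 groups, each with 2 libraries of each assay and 12 libraries in all, and cells of every group had been transduced with a lentiviral shRNA and, per the study's methods, selected with puromycin. WT-shSCR cells were wild type with a scrambled shRNA, WT-shARF cells were wild type with an shRNA against ARF, and ArfKO-shSCR cells carried the Cdkn2atm1Cjs allele (strain B6.129X1-Cdkn2atm1Cjs/KaiJ), which removes the exon specific to ARF, with the scrambled shRNA. The labels give the wild-type strain as C57BL/6J and the study's methods give B6129SF2/J. The knockout and wild-type cells also came from different embryo preparations, so genotype, strain and the body parts that went into each preparation cannot be told apart. The labels do not say whether replicates were separate cultures, and p-values therefore measure only the spread between these libraries.

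RNA libraries held 1578627 to 3989908 reads assigned to genes and footprint libraries 2544319 to 5157572. The Hox genes received 1327 to 2997 reads in an RNA library and 576 to 1066 in a footprint library, so most members rest on few reads. Cdkn2a, the targeted gene, had 119 and 65 RNA reads in WT-shSCR, 76 and 75 in ArfKO-shSCR, but 1201 and 2852 in the libraries labelled WT-shARF. It rose there by 3.91 in RNA and by 2.99 in footprints on the log2 scale, against the direction of the label. The counts cover the whole Cdkn2a coding sequence, which includes Ink4a as well as Arf, so they do not check ARF itself, and any direction drawn from these libraries is that of libraries labelled WT-shARF.

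The clusters lie on 4 chromosomes of the mm10 build. Hoxa occupies chr6:52155590-52260880 on the minus strand, Hoxb chr11:96194316-96368256, Hoxc chr15:102921103-103036852 and Hoxd chr2:74668310-74765142, the last 3 on the plus strand. Their lengths are 105.3, 173.9, 115.8 and 96.8 kb. Every member carries a homeobox, the coding stretch for the DNA-binding homeodomain, and its core is nearly the same protein in all of them. Reads of 17 to 34 nt must be told apart across this stretch, which is why part of it is shown here for paralog groups 10 and 13, which hold Hoxd10 and Hoxd13. In each line the capitals mark bases that differ from the first gene of its group, and each stretch is 30 nt of the last coding exon, read 5′ to 3′ on the gene's own strand.
Hoxd10 (chr2:74694276-74694305, plus strand): aagatttggtttcaaaaccgccgaatgaaa
Hoxa10 (chr6:52232569-52232598, minus strand): aaAatCtggtttcaGaaTcgcAgGatgaaa
Hoxc10 (chr15:102970983-102971012, plus strand): aaAatCtggtttcaaaaTcgcAgaatgaaa
Hoxd13 (chr2:74670065-74670094, plus strand): accatttggtttcagaatcgaagggtgaag
Hoxa13 (chr6:52258943-52258972, minus strand): acAatCtggttCcagaaCAgGagggtCaaA
Hoxb13 (chr11:96196155-96196184, plus strand): accatCtggtttcagaaCcgCCgggtCaag
Hoxc13 (chr15:102927345-102927374, plus strand): accatCtggttCcagaatcgaCgCgtgaaA

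The same stretch took 36 distinct forms in DNA over the 39 members but only 3 forms once translated, and 33 members shared the commonest protein form. Hoxa10 differed from Hoxd10 at 6 of the 30 bases and Hoxc10 at 4. Over whole coding sequences, the share of 20 nt windows found in another annotated gene was highest for Hoxa7 at 11.92%, and for 28 nt windows it was 5.58% in the same gene. In Hoxd10 it was 0.2% and 0%.

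In both assays the cells carried Hox messages from central numbers of Hoxa, Hoxb and Hoxc and from posterior numbers of every cluster. The central members of Hoxd, Hoxd4 and Hoxd8, were low, but so were Hoxa4, Hoxa6 and Hoxb5 in RNA and Hoxa6 in footprints. Most anterior members gave little, with Hoxb2 the main exception. Levels are given as CPM, the usual count scale corrected for library size, with TMM factors, per kb of coding sequence, so that genes of different length can be set side by side, and as the mean of the 6 libraries of an assay. In RNA the 10 highest were Hoxd10 at 714.0 CPM per kb, Hoxc5 at 26.3, Hoxb9 at 22.7, Hoxd13 at 22.0, Hoxb2 at 17.7, Hoxa5 at 11.4, Hoxa11 at 11.4, Hoxc8 at 10.2, Hoxc6 at 6.97 and Hoxa10 at 6.38. In footprints they were Hoxa5 at 26.96 CPM per kb, Hoxb9 at 16.9, Hoxd13 at 14.3, Hoxc6 at 13.9, Hoxb6 at 13.4, Hoxb7 at 12.8, Hoxb8 at 12.4, Hoxc8 at 11.96, Hoxa7 at 11.3 and Hoxa10 at 11.2. Hoxa5, Hoxb9, Hoxd13, Hoxc6, Hoxc8 and Hoxa10 were on both lists. The median over all other genes with any read was 4.67 CPM per kb in RNA and 5.71 in footprints, and 15 and 18 of the 39 members lay above it.

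**Figure D1:**
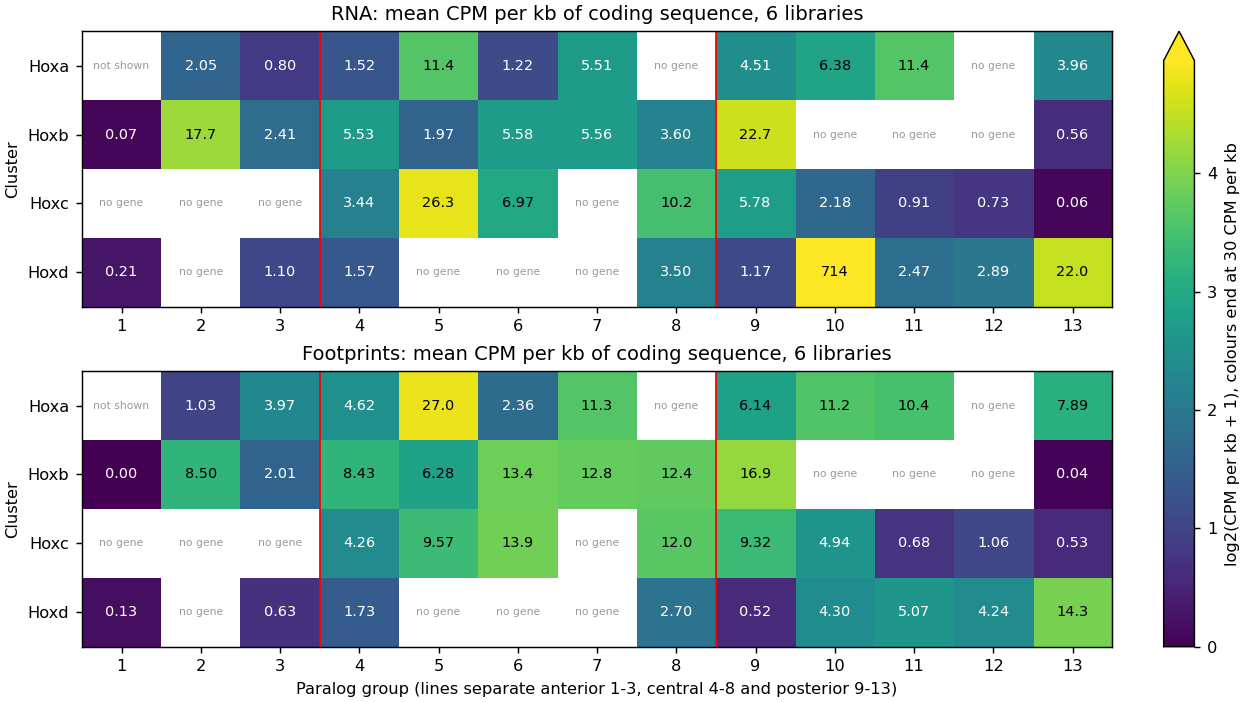
Mean level (CPM per kb of coding sequence, 6 libraries) of the Hox genes in RNA (top) and footprints (bottom), with clusters in rows and paralog groups in columns. Colour is log2(CPM per kb + 1) and ends at 30 CPM per kb, so Hoxd10 at 714.0 in RNA is off the scale. Most central members of Hoxa, Hoxb and Hoxc and group 13 of Hoxd hold high footprint levels, while groups 1 and 3, Hoxa6, Hoxb13 and Hoxc11 to Hoxc13 are low.

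The top positions in RNA below Hoxd10 were close together. Across single libraries Hoxc5 ranged from 17.0 to 45.7 CPM per kb, Hoxb9 from 14.2 to 31.7, Hoxd13 from 12.3 to 27.6 and Hoxb2 from 13.2 to 22.2, so the ranges of these 4 genes overlapped. In footprints Hoxa5 ranged from 18.1 to 36.5 CPM per kb and Hoxb9 from 11.95 to 21.02. These ranges touched as well, but Hoxa5 ranked 1 among the members in every footprint library. From Hoxb9 down to Hoxa11 each range overlapped the next.

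Among the anterior members Hoxb2 had the most reads in both assays. Hoxb2, a hindbrain gene by its textbook role, had 307 RNA reads over the 6 libraries and 194 footprints. Hoxa3, which patterns pharyngeal structures, had 21 RNA reads and 121 footprints. Hoxa2 had 39 and 29, and Hoxd3 had 24 and 19. Hoxb1, which marks a single hindbrain segment in the embryo, had 1 RNA read in 6 libraries and no footprint in 23499229 reads on genes, which allows up to 0.128 CPM (3 reads, counting error only). Hoxd1 had 2 reads in each assay. At the other end, Hoxb13, a gene of the tail bud and later of the prostate, had 7 RNA reads and 1 footprint, and Hoxc13, known for its role in hair and nails, had 1 and 10.

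Summed by paralog group, footprints were highest in the middle of the axis and did not vanish at its end. The median summed footprint level over libraries was 1.43 CPM per kb in group 1, 8.74 in group 2, 6.06 in group 3 and 20.1 in group 4. It was 38.5 in group 5, 30.4 in group 6, 23.6 in group 7, 26.8 in group 8 and 31.9 in group 9. Posterior groups then gave 19.8 in group 10, 15.8 in group 11, 5.52 in group 12 and 21.9 in group 13. In the last of these, Hoxd13 and Hoxa13, the genes that shape hands and feet, gave nearly all of the level, with 14.3 and 7.89 CPM per kb against 0.04 for Hoxb13 and 0.53 for Hoxc13. Group 13 is expressed in the tail end and in the ends of the limbs in the embryo, and the labels do not say which body parts went into the cultures.

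By cluster, the share of the summed footprint level was 28.7 to 36.5% for Hoxa, 27.8 to 35.7% for Hoxb, 16.3 to 26.2% for Hoxc and 11.2 to 16.5% for Hoxd over the 6 footprint libraries. Central members held 50.3 to 62.5%, posterior members 32.4 to 43.5% and anterior members 5.04 to 9.01%. In RNA the same shares were turned over by a single gene. Hoxd held 76.1 to 83.5% of the summed RNA level and posterior members 82.7 to 89.2%. Leaving out Hoxd10, a step chosen after its values were seen, brought Hoxd to 13.3 to 20.6% and posterior members to 39.6 to 46.8%, with central members at 42.3 to 50.9% and anterior members at 9.44 to 16.0%.

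That gene, Hoxd10, patterns the limb and the lumbar spinal cord in the embryo, and its RNA and footprint counts stood far apart. The RNA libraries held 2421 and 1219 Hoxd10 reads in WT-shSCR, 1030 and 2209 in WT-shARF, and 2118 and 2270 in ArfKO-shSCR. The footprint libraries of the same groups held 17 and 11, 1 and 21, and 44 and 12. The assays did not overlap in any group: the lowest RNA library had 1030 reads and the highest footprint library 44.

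Hoxd10 made up 73.7 to 82.7% of all Hox reads in RNA libraries and 0.153 to 4.13% in footprint libraries. Its RNA level per kb was 27.1 times that of the next member, Hoxc5, and stood at percentile 99.2 of the 19809 genes with a coding length. Its footprint level of 4.30 CPM per kb ranked 22 among the 39 members, at percentile 56.1. The ratio of footprint CPM to RNA CPM was 0.00609 in WT-shSCR, 0.00474 in WT-shARF and 0.00676 in ArfKO-shSCR. Among genes with at least 30 RNA reads in the group, 97 of 9291, 90 of 9977 and 117 of 9596 had a lower ratio.

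No other member came near this. Of the members with at least 30 RNA reads in a group, 9 in WT-shSCR, 12 in WT-shARF and 9 in ArfKO-shSCR, the next lowest log2 ratios of footprints to RNA were -1.20 for Hoxb2 in WT-shSCR, -1.29 for Hoxc5 in WT-shARF and -1.89 for Hoxc5 in ArfKO-shSCR, against -7.36, -7.72 and -7.21 for Hoxd10. Hoxa5 was at the other end with log2 ratios of 1.05, 1.62 and 1.20. The median log2 ratio of all such genes was -0.05, -0.01 and 0.01. Without Hoxd10 the Hox medians were -0.32, 0.28 and -0.55, on either side of it.

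The files give a single total for each gene and do not show where along Hoxd10 the reads fell. Its locus, chr2:74691924-74695105, is overlapped in the GENCODE M21 annotation by Gm28309, a non-coding gene on the same strand. Overlap of this kind is common in the clusters and was annotated for 23 of the 39 members. Reads that could be placed at several sites made up 79.22 to 81.38% of alignments in RNA libraries and 46.34 to 52.92% in footprint libraries and were not assigned to any gene. The part of each of these in the Hoxd10 counts was not tested, and a change in Hoxd10 RNA described below is a change in this total.

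Across all 39 members the mean levels per kb in the 2 assays had a Spearman rho of 0.86 and a Pearson r of 0.71 on the log2 scale, and without Hoxd10 0.90 and 0.86 over 38 members. These are descriptions across genes that share libraries and coding lengths. Footprint levels were above RNA levels in 23 members and below in 16. Of the 15 central members 13 were above, as were 9 of the 16 posterior members and 1 of the 8 anterior members, Hoxa3. These counts used no minimum of reads, and Hoxa6 and Hoxd4 rested on 15 RNA reads each. Among central members with at least 30 RNA reads in a group, the log2 ratio of Hoxa5 was positive and that of Hoxc5 negative in all groups. Hoxc8 had 0.15 in WT-shSCR and -0.12 in ArfKO-shSCR, and Hoxa7, Hoxb6 and Hoxc6 were positive in WT-shARF.

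**Figure D2:**
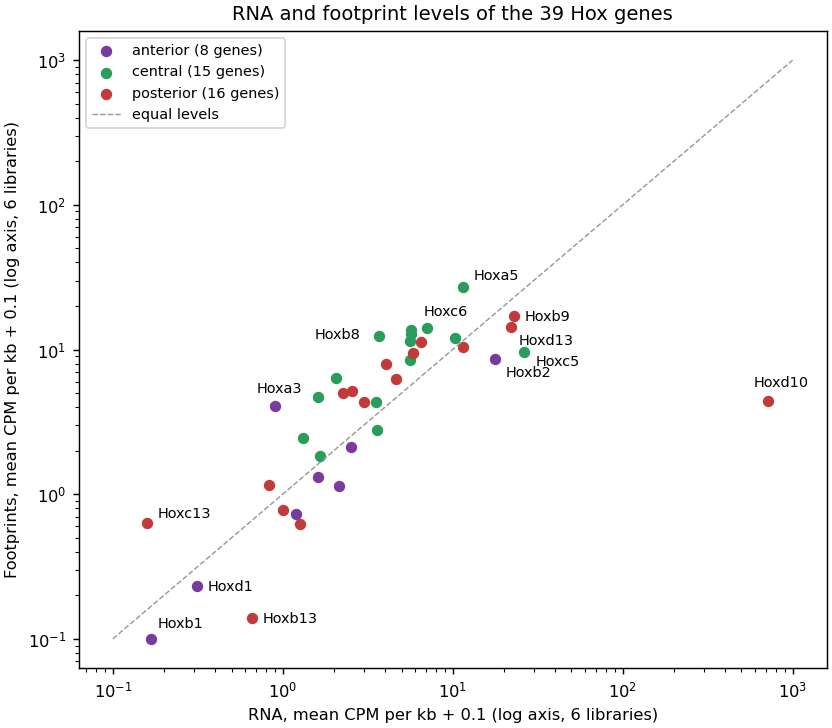
Mean RNA level against mean footprint level of the 39 Hox genes (CPM per kb + 0.1, log axes, 6 libraries each), coloured by position, with a dashed line at equal levels. Hoxd10 lies far to the right of the line with 714.0 CPM per kb in RNA and 4.30 in footprints. Most central members lie above the line, some of them on few RNA reads.

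The first comparison asked what differed between ArfKO-shSCR and WT-shSCR cells, which differ in genotype and in the embryos they came from. In footprints Hoxa5, a central gene of the lung, neck and upper trunk by its known roles, was lower in the knockout. Its footprint counts were 85 and 75 in WT-shSCR and 72 and 91 in ArfKO-shSCR, in libraries of different depth. Scaled to depth these were 28.1 and 29.6 CPM against 14.7 and 18.6 CPM, so that the groups did not overlap. The log2 fold change was -0.85 (SE 0.28, n = 2 per group) with an adjusted p of 0.0312 from edgeR's quasi-likelihood test. It was the only call among 27 members tested, in a comparison where 8.95% of all 10737 genes tested were lower and 9.57% higher, and 1 of 27 is below that share. The call was lost in 6 of 11 other settings, among them the fits that left out any of the 4 libraries. Those without a WT-shSCR footprint library called no gene at all, so they say nothing about Hoxa5. With DESeq2 the log2 fold change was again -0.85 and the adjusted p was 0.101. Over all settings the log2 fold change ran from -1.03 to -0.69.

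Hoxa5 RNA had values of 14.8 and 13.1 CPM in WT-shSCR, 5.20 and 7.85 CPM in WT-shARF and 7.02 and 7.504 CPM in ArfKO-shSCR. The WT-shSCR libraries were the highest in both assays. In RNA the log2 fold change of the knockout was -0.96 (SE 0.42), and edgeR gave an adjusted p of 0.177, which missed the threshold. No member passed in RNA, where 14 were tested and 3.94% of all 10659 genes were higher and 3.99% lower. At an unadjusted p under 0.05 there were 2 members, Hoxa5 and Hoxb7, and the second of these rested on 2 and 5 reads in the knockout. The groups did not overlap in 7 of the 14 members, against 51.6% of all genes tested.

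The other members that came nearest in footprints belonged to Hoxb. Hoxb6 footprints were 14.2 and 8.28 CPM in WT-shSCR, 11.7 and 9.62 CPM in WT-shARF and 6.32 and 4.08 CPM in ArfKO-shSCR. The 2 knockout libraries were the lowest of the 6, and the log2 fold change against WT-shSCR was -1.18 (SE 0.49) with an edgeR adjusted p of 0.0983. Hoxb4 had a log2 fold change of -1.23 (SE 0.59) and an edgeR adjusted p of 0.153. Hoxb3 pointed the other way, with 6 and 1 footprints in WT-shSCR, 6 and 4 in WT-shARF and 15 and 35 in ArfKO-shSCR. Hoxb3 had enough reads for a test only through the knockout libraries, and was not tested in footprints of WT-shARF against WT-shSCR. Its log2 fold change was 1.95 (SE 0.82) with an edgeR adjusted p of 0.0962. With so few reads in WT-shSCR the size of this change is set by the floor, and it is not used as support.

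Over all members tested, footprint log2 fold changes of the knockout had a median of -0.01, against 0.00 over all genes, and ran from -1.23 to 1.95. Of the 27 members 13 were above 0. In 12 members, or 44.4%, the 2 groups did not overlap, against 58.0% of all genes tested. By position the median was -0.34 for the 3 anterior members tested, -0.49 for the 13 central members and 0.13 for the 11 posterior members, and 1, 3 and 9 of them were above 0. The difference between positions was not tested. The standard error of the log2 fold change had a median of 0.52 in footprints and 0.45 in RNA. A call needs a change well above its standard error, and Hoxb6 and Hoxb4 above did not pass. Differences well above these medians could therefore be missed in most members at this depth.

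**Figure D3:**
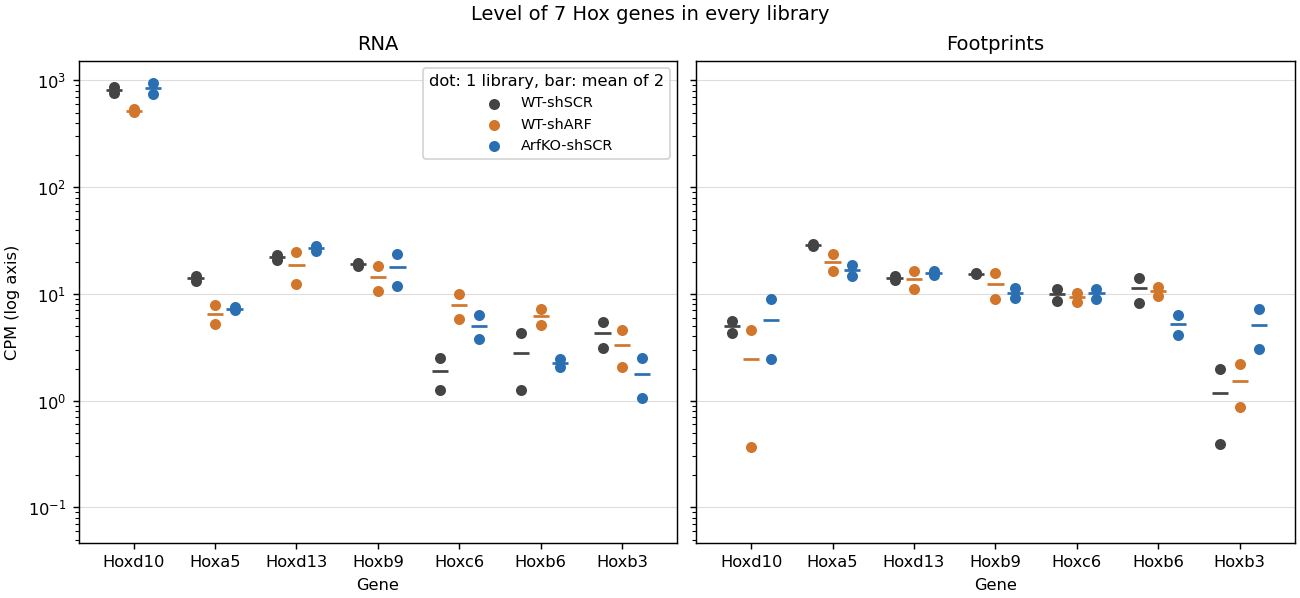
CPM (log axis) of 7 Hox genes in every library, RNA at left and footprints at right, coloured by group, with a bar at the mean of 2 libraries. Hoxd10 is above 500 CPM in every RNA library and below 10 CPM in every footprint library, and Hoxa5 is highest in WT-shSCR in both panels.

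The second comparison set the libraries labelled WT-shARF against WT-shSCR, which have the same genotype, and it shares the WT-shSCR libraries with the first. Hoxd10 RNA was lower in them, at 535 and 510 CPM against 875 and 760 CPM. The 2 libraries labelled WT-shARF were the lowest of all 6, with ArfKO-shSCR at 743 and 946 CPM. The log2 fold change was -0.67 (SE 0.13, n = 2 per group) with an adjusted p of 0.000931 in edgeR. It was the only call among 17 members tested, in a comparison in which 3.11% of 10503 genes were higher and 4.17% lower. Without the second library labelled WT-shARF the adjusted p was 0.0593, and in each of 10 other settings the call was kept. Hoxd10 footprints were 0.365 and 4.59 CPM against 5.62 and 4.34 CPM, a log2 fold change of -0.92 with an SE of 0.76. In RNA 10 of the 17 members did not overlap between groups (58.8%), against 49.8% of all genes. No member passed in footprints, where 25 were tested, 0 had an unadjusted p under 0.05 in edgeR, DESeq2 called 0 and 5.63% of 10307 genes were higher and 5.5% lower. There 6 of the 25 did not overlap, against 51.4% of all genes.

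Hoxc6, a central gene of the thoracic region, had 2.53 and 1.25 CPM of RNA in WT-shSCR, 9.88 and 5.77 CPM in WT-shARF and 6.31 and 3.75 CPM in ArfKO-shSCR. These were 7 and 2 reads in WT-shSCR against 19 and 25 in the libraries labelled WT-shARF. The log2 fold change of 1.84 (SE 0.66) had an edgeR adjusted p of 0.0872. Its footprints lay between 8.40 and 11.2 CPM in all 6 libraries, with no gap between groups.

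The third comparison, ArfKO-shSCR against WT-shARF, used the same libraries as the first 2 and adds no independent samples. Hoxd10 RNA was higher in the knockout by 0.70 on the log2 scale (SE 0.14), with an adjusted p of 0.0146 in edgeR, the only call among 16 members where 1.38% of 10632 genes were higher and 1.19% lower. Groups did not overlap in 7 of the 16 (43.8%), against 47.1% of all genes. Leaving out 1 of the libraries labelled WT-shARF ended this call, with an adjusted p of 0.19 or 0.376. In footprints 26 members were tested and none passed in edgeR, 2 had an unadjusted p under 0.05, Hoxb3 and Hoxb6, and 3.93% of 10941 genes were higher and 4.3% lower. Hoxb3 again had enough reads for a test only through the knockout libraries and is not used as support. Here 6 of the 26 did not overlap (23.1%), against 50.1% of all genes.

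**Figure D4:**
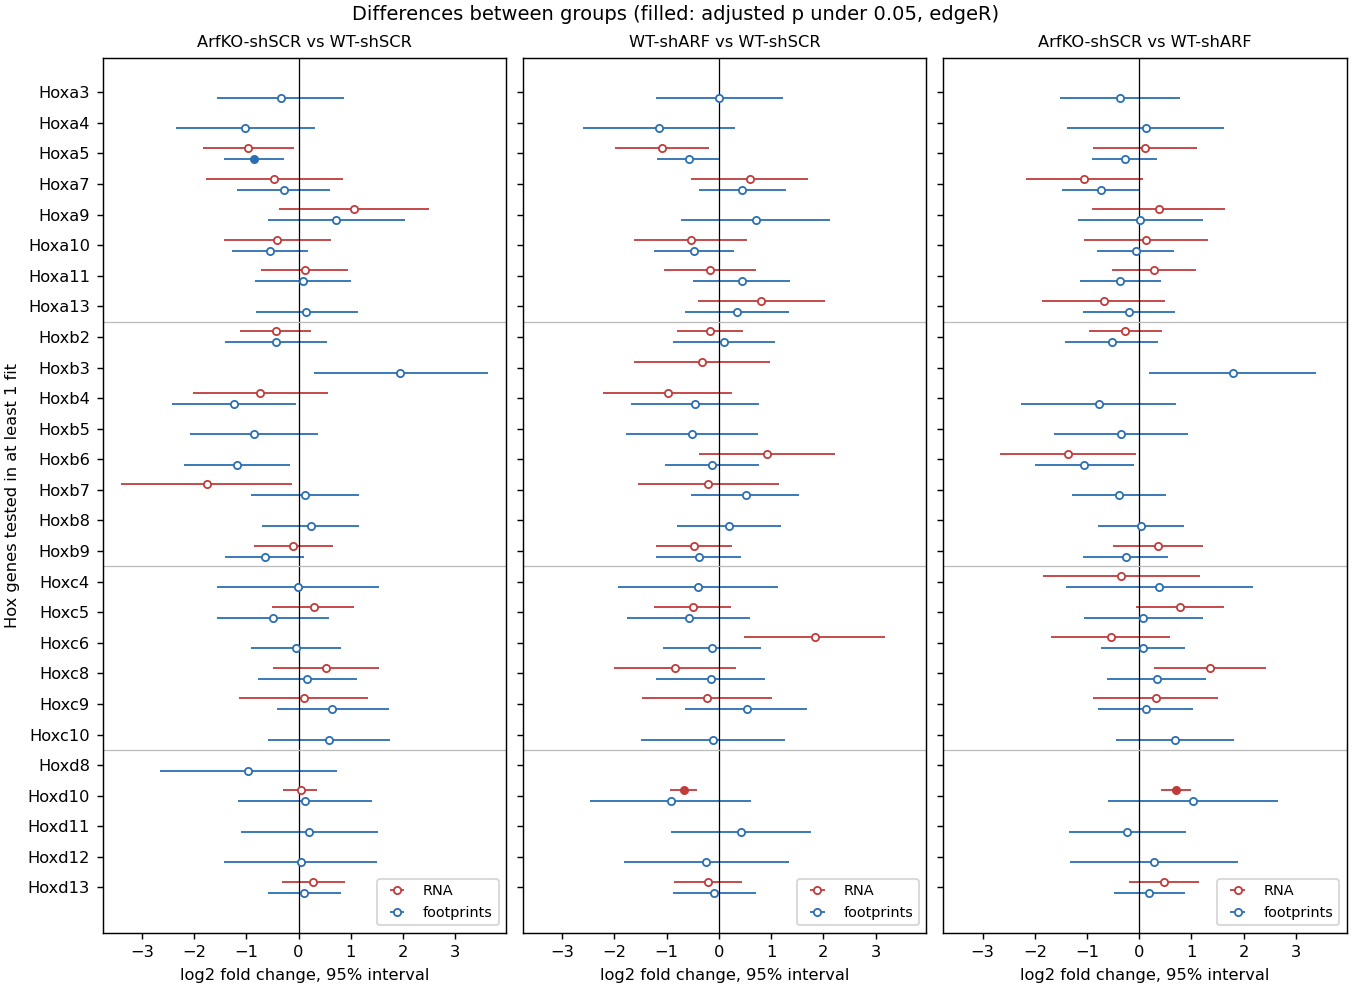
Log2 fold change with its 95% interval of every Hox gene tested in at least 1 fit, in the 3 comparisons between groups, for RNA (red) and footprints (blue). Filled points passed an adjusted p under 0.05 in edgeR: Hoxa5 footprints in the first panel and Hoxd10 RNA in the other two. Most intervals span 0 and are more than 1 log2 unit wide.

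Translation efficiency, the change in footprints beyond the change in RNA, was tested as an interaction over the 8 libraries of each pair of groups. No Hox member passed in edgeR: 24 were tested for ArfKO-shSCR against WT-shSCR, 26 for WT-shARF against WT-shSCR and 28 for ArfKO-shSCR against WT-shARF. Among all genes the shares that were higher were 0.0884, 0.0354 and 0.0172% and the shares that were lower 0.106, 0 and 0.0258%. In each fit 1 member had an unadjusted p under 0.05. That was Hoxb3 in both knockout fits, at 3.25 (SE 1.21) and 2.79 (SE 1.16) on the log2 scale, and Hoxc6 at -1.96 in the fit of WT-shARF. Hoxb3 had few footprints outside the knockout libraries. The size of its values is therefore set by the floor, and they are not used as support. For Hoxd10 the differences between groups were 0.05, -0.11 and 0.21 with SEs of 0.46, 0.43 and 0.53, so its low ratio of footprints to RNA was not seen to differ between groups within this error.

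Hox proteins bind DNA with partners of the TALE class, and 8 of 9 such genes had enough reads to be tested in RNA and footprints of every comparison. None passed in any of these 6 fits. Meis1, a cofactor that also marks proximal limb cells, differed by 0.20 (SE 0.41) in RNA and by -0.05 (SE 0.38) in footprints between ArfKO-shSCR and WT-shSCR. The median log2 fold change of the list ran from -0.20 to 0.24 over the 6 fits. Pbx4, at most 12 reads in any library, was the member that was not tested.

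Genes that mark the limb fields were present at a few reads. Tbx5, which starts the forelimb, had 10 and 4 RNA reads in WT-shSCR, 5 and 21 in WT-shARF and 8 and 6 in ArfKO-shSCR. Tbx4, which starts the hindlimb, had 13 and 3, 7 and 10, and 15 and 8. Pitx1, which makes a limb a hindlimb, had 8 and 4, 5 and 4, and 7 and 10. All 3 were thus found in RNA of every library, and the cultures cannot be assigned to a single limb field from them. Isl1 had 3 RNA reads in all. In footprints Tbx5 had 3 and 2 reads in WT-shSCR, 2 and 15 in WT-shARF and 20 and 17 in ArfKO-shSCR. Between ArfKO-shSCR and WT-shSCR its edgeR adjusted p was 0.118. Tbx5 had enough footprints for that test only through the knockout libraries, so no fold is given and it is not used as support.

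Among 22 other transcription factors of limb and trunk mesenchyme, the connective tissue precursor, 19 were tested in footprints of the knockout, of which 2 rose and 2 fell, with a median of 0.22. These counts are close to the shares of all genes in that comparison, 9.57% higher and 8.95% lower. Prrx1, a limb bud mesenchyme factor, rose by 0.64 (SE 0.15, edgeR adjusted p = 0.00246) and Prrx2 by 0.84 (SE 0.21, edgeR adjusted p = 0.00356). Msx2, a factor of limb and skull, fell by 1.88 on the log2 scale (SE 0.38, edgeR adjusted p = 0.000407), and Zic1, a factor of dorsal trunk and neural tissue, fell by 1.59 (SE 0.56, edgeR adjusted p = 0.0442). In RNA 15 were tested and 2 rose, Tbx15 by 1.20 and Prrx1 by 0.97, and none fell, where 3.94% of all genes were higher and 3.99% lower. For the libraries labelled WT-shARF 14 were tested in RNA and 16 in footprints, and none passed. Of 16 head mesenchyme factors at most 5 were tested in an RNA or footprint fit and none passed.

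Of 9 factors of visceral mesoderm, the tissue around the gut and other organs, 6 were tested in footprints of the knockout against WT-shSCR, where 9.57% of all genes were higher, and 2 rose, with a median of 0.98. Gata4 had 2 and 1 footprints in WT-shSCR, 3 and 1 in WT-shARF and 19 and 44 in ArfKO-shSCR. Wt1, a factor of kidney and body-cavity lining, had 0 and 1, 5 and 6, and 44 and 48. Both were higher in the knockout libraries than in any other. They had enough reads for a test only through those libraries, and neither was tested in footprints of WT-shARF against WT-shSCR. Their calls, and the 2 of 6, were therefore partly set by the filter and are not used as support. With so few reads in WT-shSCR the size of these changes is set by the floor and no fold is given. In RNA 4 of the 9 were tested and 1 rose, where 3.94% of all genes were higher and 3.99% lower. It was Gata4, from 3 and 1 reads to 17 and 16, which again had enough reads only through the knockout. Wt1 RNA had a log2 fold change of 0.42 (SE 0.63).

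**Figure D5:**
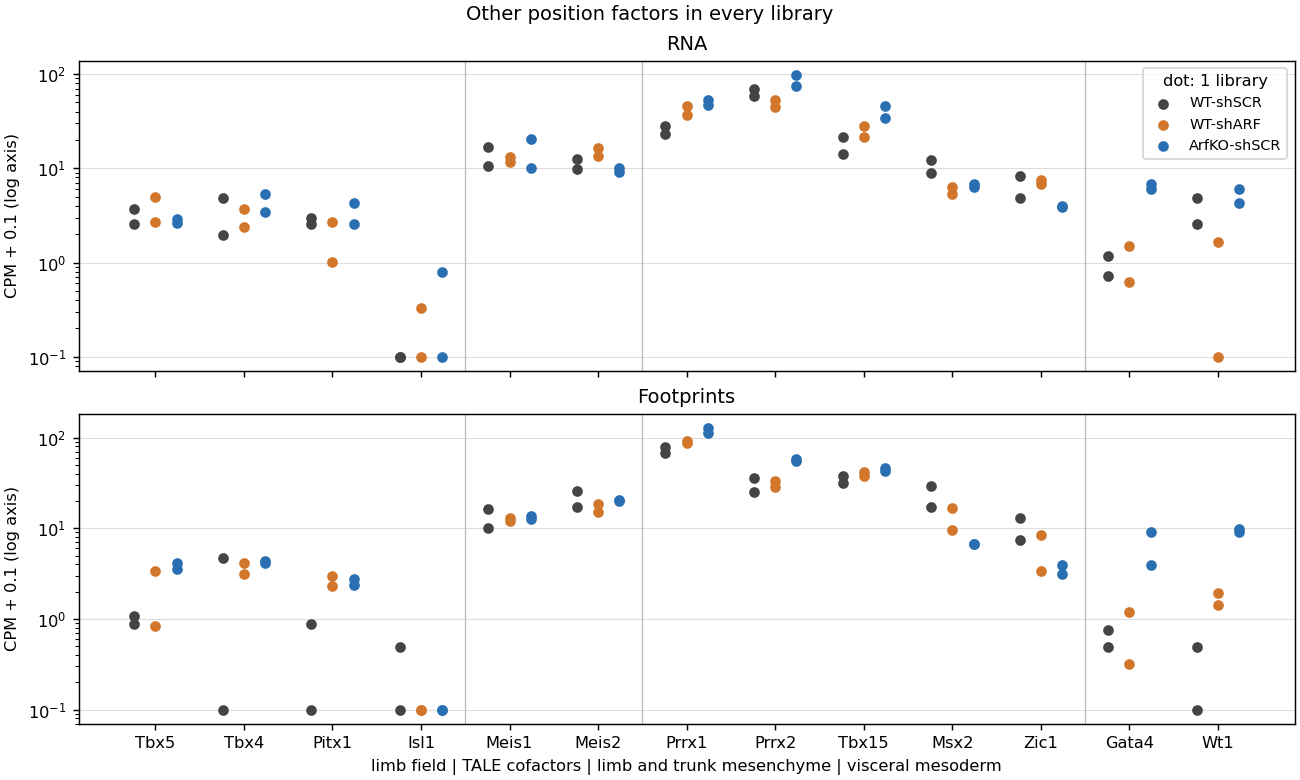
CPM + 0.1 (log axis) in every library of 13 transcription factors other than Hox that mark body position or bind with Hox proteins, RNA above and footprints below, coloured by group. Prrx1, Gata4 and Wt1 footprints are highest in both ArfKO-shSCR libraries, Tbx5, Tbx4 and Pitx1 are low in all groups, and no TALE gene passed a test between groups.

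Retinoic acid is the signal that switches on anterior Hox genes first. Of 18 genes of its pathway 14 were tested in footprints of the knockout against WT-shSCR, of which 2 rose and 1 fell, with a median of -0.42, which is again near the shares of all genes (9.57% higher, 8.95% lower). Crabp1, a binding protein for retinoic acid, rose by 2.31 (SE 0.25, edgeR adjusted p = 2.19e-08) and Aldh1a1, a synthesis enzyme, went from 6 and 0 footprints to 78 and 59. Aldh1a1 had enough reads for a test only through the knockout libraries, so its call is not used as support. Aldh1a3, another synthesis enzyme, fell by 1.65 on the log2 scale (SE 0.30, edgeR adjusted p = 0.00012). In RNA Crabp1 rose by 2.22 and Aldh1a3 fell by 1.33. None of the pathway passed in the libraries labelled WT-shARF, where 12 were tested in each assay.

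Polycomb complexes keep Hox genes silent, and the MLL complex with the demethylases of the same histone mark keeps them open. Of 30 Polycomb genes 29 were tested in footprints of the knockout, of which 4 rose and none fell, with a median of 0.17, where 9.57% of all genes were higher and 8.95% lower. They were Rbbp7 at 0.38, Rbbp4, Ezh2, the enzyme that sets the mark, at 0.63 (SE 0.16, edgeR adjusted p = 0.00567), and Phf19. In RNA 28 were tested and 2 rose, Rbbp7 by 0.52 and Mtf2 by 1.44, where 3.94% of all genes were higher and 3.99% lower. Ezh2 RNA had 0.47 (SE 0.23) with an edgeR adjusted p of 0.245. In the libraries labelled WT-shARF 1 of 29 rose in RNA, Ezh2 by 0.67 (SE 0.21, edgeR adjusted p = 0.0443), and none of 28 in footprints. Among all genes 3.11% were higher there in RNA and 5.63% in footprints. All 10 MLL and demethylase genes were tested. In the knockout 2 rose in RNA, Psip1 and Men1, and 2 in footprints, Psip1 and Wdr5, against 3.94% and 9.57% of all genes. In the libraries labelled WT-shARF 1 rose in RNA, Psip1, and 2 in footprints, Psip1 and Dpy30, against 3.11% and 5.63%. None fell in either comparison. Psip1, a chromatin tether of MLL, rose in the knockout by 1.09 in RNA and 1.12 in footprints and in the libraries labelled WT-shARF by 0.84 and 0.70. Whether these levels bear on the Hox genes was not tested.

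The chromosomal neighbours, 3 genes on each side of a cluster, gave a view of the regions outside the Hox genes. Of these 24 genes 19 were tested in footprints of the knockout, and 7 rose and 2 fell, with a median of 0.24, against 9.57% higher and 8.95% lower among all genes. The list is small, and whether it stands apart from other genes was not tested. The 7 were Hnrnpa3 at 0.74, Cbx3 at 0.82, Cbx5 at 0.85, Hnrnpa1 at 0.59, Atp5g2, Cbx1 and Atp5g3, genes of RNA binding, heterochromatin and ATP synthesis that are active in most cells, and the 2 that fell were Calcoco1 and Skap2. In footprints of the libraries labelled WT-shARF 19 were also tested, and 6 rose and 1 fell, against 5.63% higher and 5.5% lower among all genes. These 6, Hnrnpa3, Cbx3, Cbx1, Hnrnpa1, Cbx5 and Atp5g2, were all among the 7 of the knockout. In RNA of the knockout 20 were tested and 2 rose, Cbx3 and Hnrnpa1, where 3.94% of all genes were higher. None of 20 passed in RNA of the libraries labelled WT-shARF. Evx2, the homeobox gene 8.8 kb from the Hoxd cluster and next to Hoxd13, had 1 to 5 RNA reads per library and was not tested. Mtx2, 60.7 kb away on the other side, differed by -0.04 (SE 0.26) in RNA and 0.24 (SE 0.20) in footprints between ArfKO-shSCR and WT-shSCR. The other homeobox genes related to Hox, the ParaHox and Cdx genes and Evx1, were at 4 reads or fewer in every library.

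The makeup of the cultures differed between the groups beside these results. None of the 12 fibroblast markers was at 0. They summed to 21800 and 25500 CPM of RNA in WT-shSCR, 23700 and 24100 in WT-shARF and 18100 and 16900 in ArfKO-shSCR, and to 52800 and 49900, 58800 and 59500, and 41000 and 41200 CPM of footprints. ArfKO-shSCR was lowest in both assays. Col1a1, Col1a2, Vim and Fn1 made up most of these sums. From WT-shSCR to ArfKO-shSCR mean Fn1 RNA went from 8314 to 2968 CPM, Vim from 4995 to 4762 CPM and Col3a1 from 654.5 to 1225 CPM. In RNA of the knockout 2 of 11 tested were higher, Col3a1 and Pdgfra, and 1 was lower, Fn1, where 3.94% of all genes were higher and 3.99% lower. In its footprints 4 of the 12 rose and 4 fell against WT-shSCR, where 9.57% of all genes were higher and 8.95% lower. Macrophage markers summed to 664 and 667 CPM of RNA in WT-shSCR, 324 and 248 in WT-shARF and 48.1 and 84.2 in ArfKO-shSCR. Of these 10 of 12 fell in RNA of the knockout and 12 of 12 in footprints, where 3.99% and 8.95% of all genes were lower. Mesothelial and epithelial markers summed to 94.0 and 95.4 CPM of RNA in WT-shSCR, 64.5 and 77.1 in WT-shARF and 175 and 197 in ArfKO-shSCR. Krt19 made up most of the sum in the wild-type groups, with 72.66 and 71.1 CPM in WT-shSCR and 39.51 and 50.08 in WT-shARF. Mean Krt7 RNA went the other way there, from 3.317 to 7.764 CPM. In footprints of the knockout 7 of 8 tested were higher, where 9.57% of all genes were higher. Several, such as Upk3b and Lrrn4, had no footprint in WT-shSCR and enough reads for a test only through the knockout. Only 2 of the list were tested in footprints of WT-shARF against WT-shSCR, so the 7 of 8 was partly set by the filter. Cartilage markers summed to 210 and 206, 133 and 147, and 118 and 145 CPM, and skeletal muscle markers to 193 and 185, 109 and 94.4, and 149 and 180. Col2a1 made up most of the cartilage sum. Des and Acta1 made up most of the muscle sum, and the other muscle markers had few or no reads. From WT-shSCR to ArfKO-shSCR mean Acta1 RNA went from 87.39 to 37.02 CPM and was called lower, while Des went from 94.92 to 117.1 CPM and was not called. Endothelial markers summed to 29.2 to 45.2 CPM and neural and Schwann cell markers to 105 to 150 CPM. Tubb3 made up most of the neural sum, and none of either list passed in any RNA or footprint fit. In such mixed cultures fewer cells of a type and less RNA per cell cannot be told apart, and the part of this makeup in the Hoxa5, Hoxd10, Gata4 and Wt1 differences was not tested.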

How the data were processed

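RNA sequencing and ribosome profiling of 12 libraries were read from the deposited tables, which hold raw counts per gene made by the authors. Per the labels and the study's methods, ribosomal RNA was depleted, fragments of 17 to 34 nt were cloned, adapters and molecular identifiers were removed, reads were aligned with TopHat to mm10, and coding sequence reads were counted with HTSeq. The printed counting command sets no strand option, and whether duplicates were collapsed is not given in the sources used here. The yeast spike-in was not used. Reads on genes ranged from 1578627 to 3989908 in RNA and from 2544319 to 5157572 in footprint libraries. Rows of HTSeq that name no gene were left out of library sizes. Reads at several sites were 79.22 to 81.38% of alignments in RNA and 46.34 to 52.92% in footprints, and reads on no feature 14.9 to 15.5% and 9.41 to 11.99%.

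Groups follow the labels. Each comparison was fitted on all genes of its 2 groups with edgeR 4.0.16 in R 4.3.3 (TMM factors, filterByExpr, quasi-likelihood F test, two-sided, Benjamini-Hochberg adjustment over all genes tested, threshold 0.05), and translation efficiency as the interaction of assay and group over 8 libraries. With 2 libraries a group an exact permutation test cannot go below 0.33 and was not used. Levels are TMM-scaled CPM over the 12 libraries divided by the union of coding exons in GENCODE M21 (19809 of 20661 genes matched by symbol), and sequences are from its transcripts. The tests were checked on simulated counts. Alternatives were DESeq2 1.42.0, RLE factors, other filters, all groups in a single fit, the replicate number as a block, a threshold of 0.01, and leaving out each library.

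The members, and the 16 lists holding 197 genes, were chosen with earlier results of these data known. Members called in any comparison, the 10 with the highest level per kb and those with few or no reads are named, other lists by at most 4 called genes per comparison in order of p, with the limb field list, the TALE list, Cdkn2a and the cluster neighbours. Hoxb3, Hoxb4, Hoxb6, Hoxb7, Hoxa3, Hoxa13 and the other anterior members outside this rule were named after their values were seen. No Hox count was dropped or imputed. The values of 2 single genes and part of the homeobox stretches are not reported here.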

Additional observations from a re-analysis of the deposited data

How the results depend on the processing

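Counts of Hox members called kept within 1.5 times in all alternatives except those given here. In footprints of ArfKO-shSCR against WT-shSCR, the count of members that were lower went from 1 to 0 with DESeq2 and with a threshold of 0.01, to 2 (Hoxa5 and Hoxb6) where at least 10 counts were asked of every library, and to 0 (range 0 to 0) when any library was left out. Without either WT-shSCR footprint library 0% of all genes were called, so those fits say nothing about Hoxa5. In RNA of ArfKO-shSCR against WT-shARF the count of higher members went from 1 to 0 at a threshold of 0.01 and ran from 0 to 2 (Hoxc5 and Hoxd10) when libraries were left out. In RNA of WT-shARF against WT-shSCR the count of lower members ran from 0 to 1 when libraries were left out. Every other RNA, footprint and translation efficiency count was 0 in edgeR, DESeq2 and all other settings. No Hox difference reversed. The log2 fold change of Hoxa5 footprints ran from -1.03 to -0.69 over the settings, that of Hoxd10 RNA from -0.78 to -0.55 in WT-shARF against WT-shSCR and from 0.52 to 0.87 in ArfKO-shSCR against WT-shARF. The cause of these changes was not tested.

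Leaving out Hoxd10, an alternative chosen after seeing the data, moved the mean shares of the summed RNA level from 5.63 to 24.2% for Hoxa, from 7.41 to 31.8% for Hoxb, from 6.18 to 27.1% for Hoxc and from 80.8 to 16.9% for Hoxd. Anterior members then held 12.4%, central members 45.4% and posterior members 42.2%. The longest coding sequence in place of the union, CPM without TMM, and a count of 28 nt windows found in no other annotated gene (also chosen after seeing the data) moved no share beyond its spread. A count of 28 nt fragments over the whole genome was not run.

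Libraries with the same replicate number did not deviate together (r of deviations from group means from -0.066 to 0.0435 over the 3 pairs of groups in each assay), so the numbers were not read as pairs. A fit that took the replicate number as a block gave counts of called members as in the fits without it, at 1 lower in footprints of ArfKO-shSCR against WT-shSCR (Hoxa5, -0.86), 1 lower in RNA of WT-shARF (Hoxd10, -0.67), 1 higher in RNA of ArfKO-shSCR against WT-shARF (Hoxd10, 0.69) and 0 elsewhere. Over all genes the block moved the share called for translation efficiency from 0.0354 to 0.345% in WT-shARF against WT-shSCR and from 0.043 to 0.0688% in ArfKO-shSCR against WT-shARF.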
